A study of Rattus norvegicus with 4 samples.

Results

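The genes described here encode 9 proteins through which macrophages can build up or break down the matrix of the lung. They are the protease inhibitors Timp1 and Timp2, the growth factors Tgfb1, Pdgfa and Pdgfb, the adhesive cytokine Spp1 (osteopontin) and the matrix metalloproteinases Mmp9, Mmp12 and Mmp14. They were chosen by name. All gene spots whose RefSeq transcript belongs to one of these rat genes were taken, which gave 9 of 9 genes, 11 of the 45598 gene probes of the array and 56 spots per array. In all, 16581 rat genes could be named on the array, and 16419 of them were measured on all 4 arrays.

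The samples were 4 cultures of NR8383, a line of alveolar macrophages obtained by lavage of a rat lung and used after 20 passages. All 4 received NRCWE006, a multi-walled carbon nanotube, at 1 cm2 of particle per cm2 of culture for 4 h. They are biological replicates 1 to 4 of a single group, each hybridised in 1 colour (Cy3) to 1 Agilent array. Cultures without nanotubes belong to the design but were not analysed here, so every value below describes exposed cells and none is an effect of the exposure. NR8383 is 1 line that grows partly attached and partly floating, with no fibroblasts or epithelium beside it.

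Macrophages can drive fibrosis by releasing transforming growth factor beta and platelet-derived growth factors, which act on fibroblasts, and by shifting the balance between metalloproteinases and their tissue inhibitors. Metalloproteinases are made as inactive precursors and cut collagen, elastin and other matrix proteins once activated. The TIMP proteins block them by binding their active site. TIMP-2 has a further role, as it helps the membrane-bound MMP-14 to activate the gelatinase MMP-2. Osteopontin binds integrins and CD44, and is a common product of lung macrophages in injured tissue.

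RefSeq promoter sequences (build GRCr8) were at hand for 7 of the 9 genes. The 250 bases before the gene start are shown for the 2 genes that gave a signal on every array, Timp2 and Tgfb1, and for 2 that did not, the inhibitor Timp1 and the elastase gene Mmp12. Capitals mark matches, on either strand, to the AP-1 consensus TGANTCA, to the AP-1 variant TGAGTAA, to the GC box GGGCGG and to the TATA box TATAAA. The variant was added after the Timp1 sequence had been seen, and no matches overlapped.
Timp2, chr10:104089215-104089464, minus strand: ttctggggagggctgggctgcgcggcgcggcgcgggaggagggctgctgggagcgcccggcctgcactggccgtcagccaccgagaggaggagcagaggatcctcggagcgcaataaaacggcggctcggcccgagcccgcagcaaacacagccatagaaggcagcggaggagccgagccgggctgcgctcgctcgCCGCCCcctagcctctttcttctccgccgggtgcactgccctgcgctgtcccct
Tgfb1, chr1:90324062-90324311, plus strand: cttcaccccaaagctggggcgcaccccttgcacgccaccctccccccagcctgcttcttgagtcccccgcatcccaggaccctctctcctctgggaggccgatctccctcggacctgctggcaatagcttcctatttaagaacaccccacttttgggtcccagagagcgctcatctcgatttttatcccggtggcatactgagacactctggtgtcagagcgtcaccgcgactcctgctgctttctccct
Timp1, chrX:3771123-3771372, minus strand: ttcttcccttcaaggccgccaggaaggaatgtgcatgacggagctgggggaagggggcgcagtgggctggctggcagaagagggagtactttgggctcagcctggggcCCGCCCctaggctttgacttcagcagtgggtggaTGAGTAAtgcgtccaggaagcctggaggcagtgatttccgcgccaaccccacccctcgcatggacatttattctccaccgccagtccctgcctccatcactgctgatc
Mmp12, chr8:12866402-12866651, plus strand: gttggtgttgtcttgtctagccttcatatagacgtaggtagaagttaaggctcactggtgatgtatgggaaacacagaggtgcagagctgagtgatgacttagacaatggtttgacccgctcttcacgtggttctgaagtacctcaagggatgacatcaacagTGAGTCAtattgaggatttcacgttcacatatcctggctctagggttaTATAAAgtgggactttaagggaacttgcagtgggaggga

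The Timp2 window held 1 GC box and none of the other motifs, and 72.0% of its bases were G or C. The Timp1 window, with 61.2% G or C, held 1 GC box and 1 copy of the AP-1 variant, 108 bases before the start. The Mmp12 window, with 45.6% G or C, held 1 AP-1 consensus and 1 TATA box, 87 and 39 bases before the start. None of the 4 motifs was found in the Tgfb1 window, which says only that these letters are not in it. Among the 33469 promoter windows of this length, 6.34% held the AP-1 consensus, 2.38% the variant, 30.5% the GC box and 12.9% the TATA box. These matches describe the sequences only, and binding to them was not measured.

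The arrays were dim, and replicate 4 differed from the other arrays as a whole. Between 4252 and 6476 probes per array were well above background, which is the scanner software's call that a spot is brighter than its surroundings by more than their noise. No gene spot was saturated. In replicate 4, 656 gene spots were called non-uniform, and 9 to 34 on the other arrays. Its negative control spots, which match no rat transcript, also had the highest median signal, at 4.61 intensity units, with 2.98 to 3.36 on replicates 1 to 3. None of the member spots was among the non-uniform ones. Of 10 macrophage markers, 4 were well above background on all arrays, namely Cd68, Lyz2, Fcgr1a and Spi1. Ptprc was on 1 array. Csf1r, the receptor for macrophage colony-stimulating factor, was not on any, and neither were Itgam, Adgre1, Mrc1 and Cd14. None of the markers of fibroblasts (9), lung epithelium (7) and granulocytes (5) was well above background on all 4 arrays. The epithelial marker Sftpb was on 1 array. Of all named genes, 11.9% were well above background on all 4 arrays, so an absence from lists this short says little.

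Timp2 and Tgfb1 were the 2 of 9 genes detected, meaning well above background on each of the 4 arrays. Among all named genes this share was 11.9%, and among all gene probes it was 7.04%, with 2 of the 11 member probes. The other 7 genes, Timp1, Spp1, Mmp9, Mmp12, Mmp14, Pdgfa and Pdgfb, had no array on which a probe was called. Not being above background is a limit of the array and not a level of 0. RNA was taken from whole cultures, so fewer cells with a transcript and less of it per cell cannot be told apart.

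**Figure D1:**
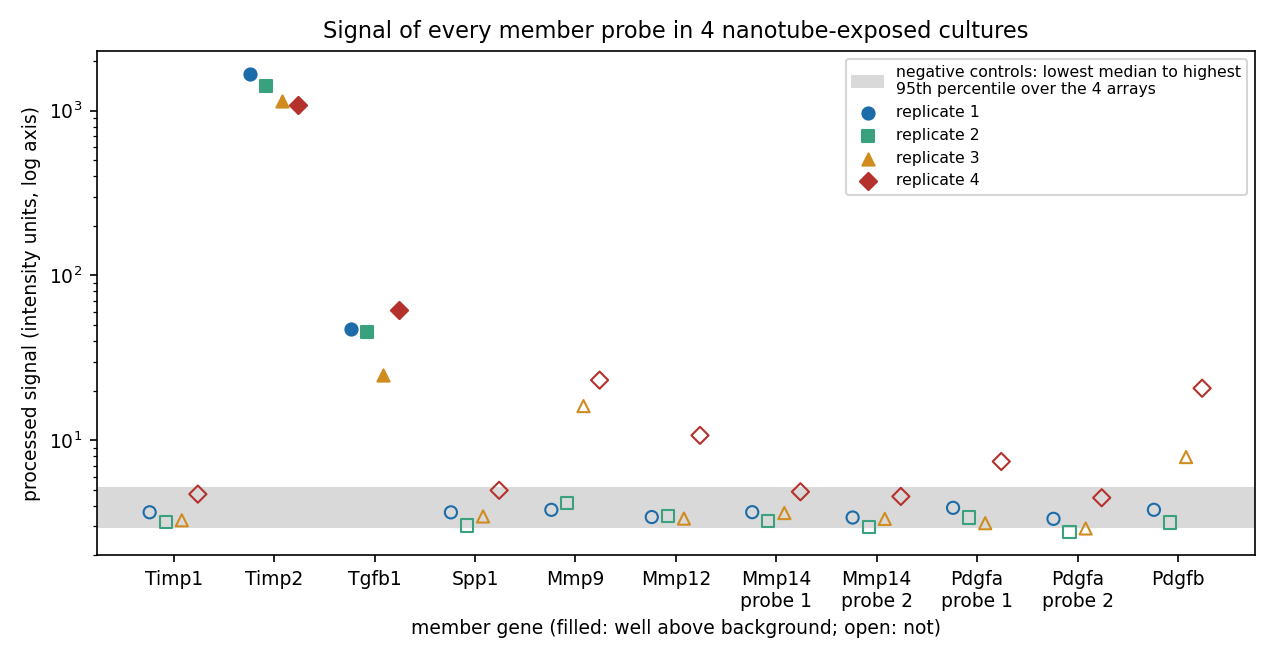
Processed signal (intensity units, log axis) of each of the 11 member probes on the arrays of replicates 1 to 4. Filled symbols were well above background and open ones were not. The grey band runs from the lowest median to the highest 95th percentile of the negative controls over the 4 arrays. Single control spots lay above the band, up to 9.05 in replicate 4. Timp2 lies between 1089 and 1677 and Tgfb1 between 24.8 and 61.8, while replicate 4 is the highest of the 4 points in each probe of the other 7 genes; the height of one probe is not comparable with that of another.

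Timp2, the inhibitor that also assists MMP-2 activation, was far above background on every array. Its probe was printed 10 times on each array, and 10 of 10 spots were well above background on every array. The mean processed signal was 1677, 1418, 1140 and 1089 intensity units in replicates 1 to 4. These signals were 500, 476, 345 and 236 times the median of the negative controls of the same array. The 75th percentile of detected probes ran in the same order, at 384, 281, 236 and 223, while that of all gene probes did not, at 5.85, 3.82, 4.07 and 10.1.

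After each array was divided by the percentile of its detected probes, the log2 level of Timp2 was 2.13, 2.34, 2.27 and 2.29 in replicates 1 to 4. The 4 cultures thus spanned 0.21 on the log2 scale, or 1.16-fold, with a mean of 2.26 ± 0.09 (SD, n = 4). On the same log2 scale the 10 spots of 1 array had SDs of 0.14, 0.17, 0.12 and 0.16, which give their mean a standard error of 0.04 to 0.05. Of 1946 detected genes, 7.30% had an SD over the cultures as small or smaller, and the median SD was 0.24. These genes were not matched to Timp2 for signal or number of spots, and some had 1 spot per array. The SD depends on the processing. It was 0.29 without scaling and 0.78 when arrays were divided by the percentile of all gene probes. After quantile normalization it was 0.077, and after normexp background correction 0.064.

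Tgfb1, which encodes transforming growth factor beta 1, a main inducer of matrix production by fibroblasts, was measured by a single spot per array. Its processed signal was 47.1, 45.6, 24.8 and 61.8 intensity units in replicates 1 to 4, against negative control medians of 3.36, 2.98, 3.30 and 4.61. The scanner software put the error of these 4 signals at 11.8%, 11.7%, 16.0% and 12.2%. In signal, replicate 3 was the lowest and replicate 4 the highest. As ratios to the negative control median of the same array, the values were 14.0, 15.3, 7.52 and 13.4 in replicates 1 to 4. By these ratios replicate 3 was again the lowest, but replicate 2 was the highest.

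The log2 level of Tgfb1, on the same scaling, was -3.03, -2.62, -3.25 and -1.85 in replicates 1 to 4, with a mean of -2.69 ± 0.62 (SD, n = 4). The range was 1.40 on the log2 scale, or 2.63-fold, and 93.8% of detected genes had an SD as small or smaller. Those genes were not matched to Tgfb1 for signal or number of spots. Replicate 4 lay 1.12 above the mean of the other 3, while the median detected gene lay at -0.07. Without replicate 4 the SD was 0.32. With all 4 arrays it was 0.35 after quantile normalization and 0.36 after normexp background correction. With 1 spot on 1 array for each culture, the difference could not be tested, and the array-wide differences of replicate 4 given above moved with it; their part in the value was not tested. Divided instead by the percentile of all gene probes, most of which are at background, the sign turns, with replicate 4 at -0.45 and the median detected gene at -1.64.

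Timp1, the inhibitor that inflammatory signals typically induce, also had a probe printed 10 times. Its mean signal was 3.65, 3.17, 3.26 and 4.70 intensity units in replicates 1 to 4. The negative controls of the same arrays had medians of 3.36, 2.98, 3.30 and 4.61, so Timp1 was at 0.988 to 1.09 times the negative control median. Of its 40 spot readings, none was well above background, and the brightest was 7.46 in replicate 4. The software put the error of a Timp1 reading at 100% of the signal, with 10.0% for Timp2. The 2 inhibitors thus differed in what the arrays could show of them: every Timp2 spot was called and no Timp1 spot was.

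Spp1, encoding osteopontin, had a probe printed 10 times as well. Its mean signal was 3.64, 3.03, 3.44 and 4.96 intensity units in replicates 1 to 4, or 1.02 to 1.09 times the negative control median. In replicate 4, 1 of the 10 spots read 42.5 and was well above background. The software marked that spot as an outlier among its copies, and it was left out. The remaining 9 spots of that array ran between 3.77 and 7.43.

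Mmp14, the membrane-bound metalloproteinase that activates MMP-2, had 2 probes printed 10 times each. The first gave mean signals of 3.65, 3.22, 3.61 and 4.86 intensity units in replicates 1 to 4. The second gave 3.39, 2.98, 3.33 and 4.55. Both probes lay between 0.988 and 1.09 times the negative control median on every array. A single spot of the first probe was well above background in replicate 1 (22.4) and another in replicate 4 (46.7), and both were outliers among their copies. Across Timp1, Spp1 and Mmp14, 4 probes with 10 spots on each of 4 arrays therefore gave no call beyond these 3 outlier spots.

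**Figure D2:**
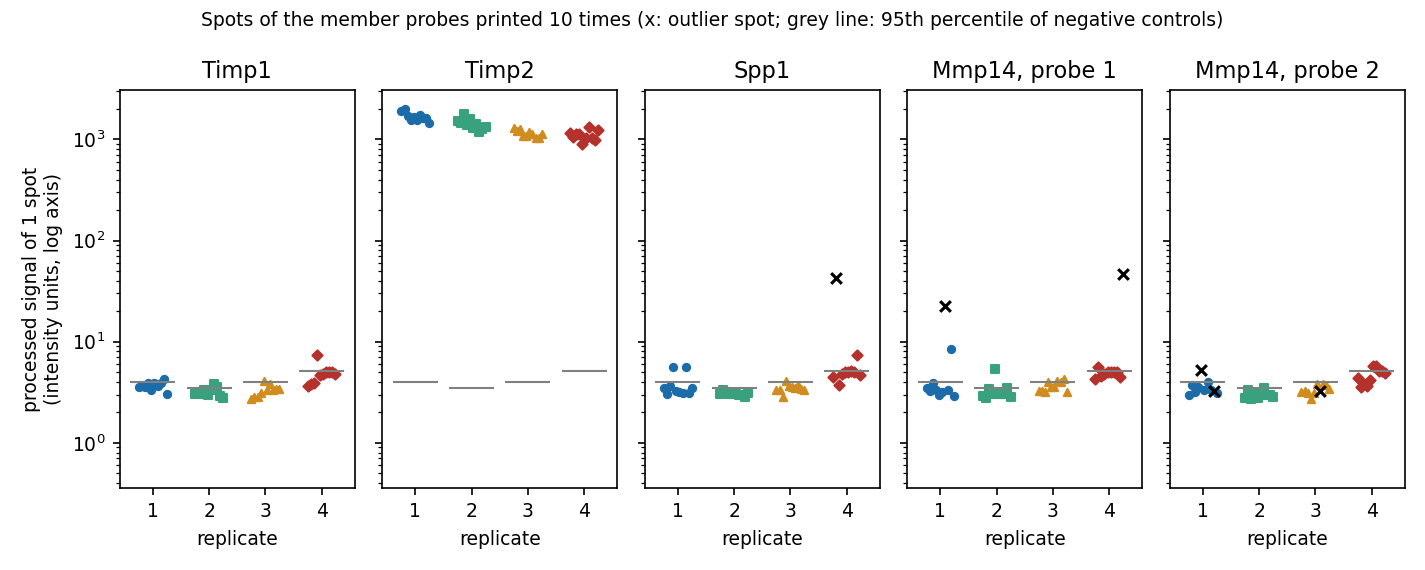
Processed signal of every spot (intensity units, log axis) of the 5 member probes printed 10 times, by replicate; grey lines are the 95th percentile of the negative controls of that array, and crosses are spots that the software marked as outliers. The Timp2 spots lie between 907 and 2018, whereas those of Timp1, Spp1 and Mmp14 lie mostly below the grey lines, with 3 bright outliers far above.

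The 2 secreted metalloproteinases had 1 probe with 1 spot each. Mmp9, the gelatinase B gene, had signals of 3.77, 4.15, 16.1 and 23.1 intensity units in replicates 1 to 4. Mmp12, the macrophage elastase gene, had 3.41, 3.47, 3.34 and 10.7. None of these 8 readings was called well above background. In replicates 3 and 4 the Mmp9 signal nevertheless exceeded every negative control spot, whose maxima were 5.64 and 9.05 on these arrays, and in replicate 4 Mmp12 did so too. Spots that were called began at 13.7 in replicate 3 and 18.0 in replicate 4, so Mmp9 lay in the range where some spots are called and others are not. The software's own errors for the 2 higher Mmp9 readings were 24.9% and 29.5%.

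The platelet-derived growth factor genes, whose products make fibroblasts and smooth muscle cells divide and migrate, were dim as well. Pdgfb, the B chain, had signals of 3.77, 3.16, 7.89 and 20.6 intensity units in replicates 1 to 4. The last 2 were above every negative control spot of their arrays, with software errors of 44.5% and 45.7%. Pdgfa, the A chain, had 2 probes of 1 spot. The first gave 3.88, 3.39, 3.13 and 7.42, and the second 3.33, 2.75, 2.91 and 4.47. In replicate 4 the software's errors of the 2 Pdgfa readings were 63.6% and 84.6%.

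Signal near background leaned towards replicate 4 across the array and not in these genes alone. Each of the 9 member probes that were not detected was highest in replicate 4, as were 78.0% of the 36145 probes that were called on no array. Taken as ratios to the negative control median of the same array, 4 of the 9 were highest in replicate 4. In replicate 4, 4 of the 9 probes exceeded the 95th percentile of negative controls by over 10%, and 20.3% of the 36145 probes did. In replicates 1 to 3 the counts were 0, 1 and 2 of 9, beside 19.0%, 13.6% and 11.3% of those probes. By this more lenient limit 21.5% of named genes were above background on all 4 arrays, and Timp2 and Tgfb1 were again the 2 members that were. Mmp9 passed it on 3 of 4 arrays, Pdgfb on 2, Mmp12 and the first Pdgfa probe on 1, and Timp1, Spp1, Mmp14 and the second Pdgfa probe on none.

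The surrounding pathways were read through 11 lists with 117 genes, 106 of which were measured on all arrays. Detection on all 4 arrays held for 16 of them (15.1%), beside 11.9% of all named genes. A further 12 were called on some arrays, and 78 on none of them. The share of 11.9% also stands beside every list count below. The lists are short, so few or no detected genes in a list is not read as a result about its pathway.

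**Figure D3:**
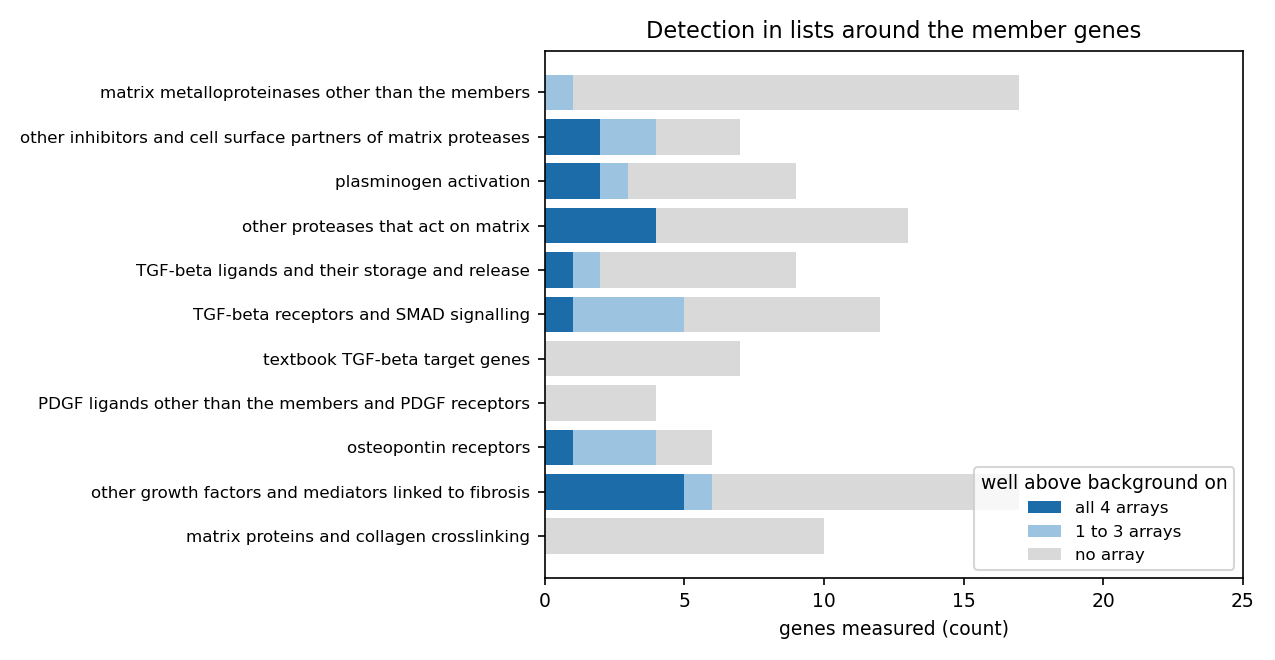
Number of measured genes in each of the 11 pathway lists, split into those called on all 4 arrays (dark), on 1 to 3 arrays (light) or on no array (grey). The lists of other metalloproteinases, TGF-beta target genes, PDGF partners and matrix proteins hold no dark bar.

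None of the 17 other matrix metalloproteinases measured was detected on all 4 arrays, beside 11.9% of all named genes. Mmp2, the gelatinase A that TIMP-2 helps to activate, stood at 3.55, 3.05, 3.69 and 9.89 intensity units at most over its 2 probes. The nearest to detection was the matrilysin gene Mmp7, named after its values were seen, with 26.8, 21.1, 9.09 and 30.3 in replicates 1 to 4 and a call on 3 arrays. The inhibitor genes Timp3 and Timp4 were not called on any array either, and Timp3 had signals of 3.46, 2.85, 3.19 and 4.00.

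Of the cathepsins, lysosomal proteases that can also degrade matrix when released, Ctsb, Ctsd and Ctss, the genes of cathepsins B, D and S, were detected. They were among 4 of 13 genes detected in the list of other matrix-degrading proteases, or 30.8%, beside 11.9% of all named genes. Ctsb had a level of 2.60 ± 0.13, Ctsd of 1.22 ± 0.12 and Ctss of -2.68 ± 0.17 (SD, n = 4). Ctsk, the gene of the strongly collagenolytic cathepsin K, and Ctsl, named after its values were seen, were not called on any array. Ctsk had signals of 3.44, 2.90, 2.72 and 3.69 intensity units in replicates 1 to 4. The Ctsl signals were 10.7, 8.09, 8.93 and 9.22. On each array Ctsl exceeded every negative control spot, whose maxima were 5.41, 5.67, 5.64 and 9.05.

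Among partners of the inhibitors and proteases at the cell surface, 2 of 7 were detected, or 28.6%, beside 11.9% of all named genes. Cd63, a tetraspanin that binds TIMP-1, had log2 levels of 1.06, 0.95, 1.11 and 0.98 in replicates 1 to 4, with an SD of 0.07. Bsg, or basigin, known as an inducer of metalloproteinases, had -2.73, -2.86, -2.19 and -0.80, from 1 spot per array. It was highest in replicate 4, by 1.79 above the mean of the others. In the plasminogen system, S100a10 and Anxa2, which form a plasminogen-binding complex on the cell surface, were the 2 of 9 genes detected, at -0.53 ± 0.15 and 1.63 ± 0.25 (SD, n = 4). Plau, encoding the plasminogen activator urokinase, was not above background on any array.

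The TGF-beta pathway was covered in part. Nrros, which tethers latent TGF-beta 1 to the surface of myeloid cells, was the 1 of 9 genes of ligand storage and release detected, at -0.83 ± 0.14 (SD, n = 4), and Tgfb2 was not above background. Of 12 receptor and SMAD genes, Tgfbr2, the type II receptor, was detected, with log2 levels of -1.15, -1.50, -1.60 and -2.11 in replicates 1 to 4 from a probe printed 10 times. Its lowest value fell in replicate 4, where Tgfb1 was highest, and its second probe was not above background on any array. Tgfbr1, the type I receptor that signals with it, was not above background on any array. Neither was any of the 7 textbook TGF-beta target genes measured. With 11.9% of all named genes detected on all 4 arrays, none of 7 is not read as a result about these targets.

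For osteopontin, 1 of 6 receptor genes was detected on all arrays, Cd44, at -1.10 ± 0.18 (SD, n = 4), and Itgb5 was not above background on any. Another 3 receptor genes were called on some arrays. Among them, Itgb1, named after its values were seen, had a call on 3 arrays. For the platelet-derived growth factors, none of the 4 genes of further ligands and receptors was above background on any array, Pdgfc among them. No matrix or crosslinking gene was either, with Fn1, encoding fibronectin, as the first of 10 measured.

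Other growth factors and mediators linked to fibrosis had 5 of 17 genes detected, or 29.4%, beside 11.9% of all named genes. Igf1, the insulin-like growth factor through which macrophages support fibroblasts, had log2 levels of -0.29, -0.39, -0.01 and -0.41 in replicates 1 to 4. This came from 1 of its 5 probes. Lgals3, the gene of galectin-3, lay at 1.89 ± 0.18 (SD, n = 4). Ccl2, the monocyte chemokine, had the largest spread of the pathway genes named here, with -2.53, -2.73, -1.74 and -0.24 and its highest value in replicate 4. Fgf2, a fibroblast growth factor, was not above background on any array.

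**Figure D4:**
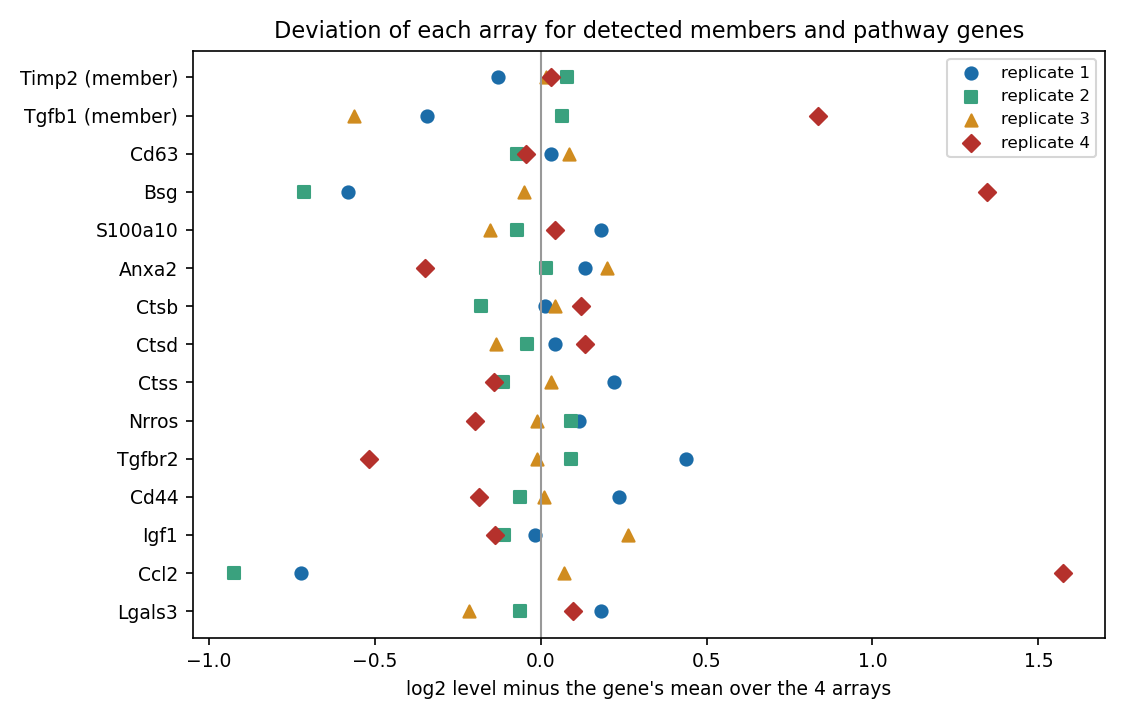
Log2 level of each array minus the gene's own mean over the 4 arrays, for the 2 detected members and the 13 detected pathway genes named in the text. Timp2 and Cd63 stay close to 0 on every array, replicate 4 lies far to the right for Tgfb1, Bsg and Ccl2, and far to the left for Tgfbr2.

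The pattern of Tgfb1 over the arrays was set beside that of 1944 other detected genes, by the root mean square difference of levels centred on each gene's mean. The nearest were G4 (0.04 on the log2 scale), the potassium channel gene Kcnk6 (0.04), the tRNA methyltransferase gene Trmt61a (0.07) and Mcrip2 (0.09), each from 1 spot per array and each highest in replicate 4. For Timp2 the nearest were the ATP synthase subunit gene Atp5f1e (0.01), the mitochondrial ribosomal protein genes Mrpl23 (0.01) and Mrpl27 (0.02), and Tmub2 (0.02). All of these rest on 4 arrays of 1 slide and describe these arrays only.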

How the data were processed

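The deposited files hold scanner output of 1-colour Agilent arrays as linear spot intensity, per the file headers. The submitters' processing notes name Agilent Feature Extraction version 11.0.1.1, which subtracts the background to give the processed signal. Arrays were not scaled to each other in the deposited intensity. The median signal, median background and signal error columns are intensity values as deposited by the authors.

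Control spots and spots called non-uniform or population outliers were left out. The log2 signals of a probe's remaining spots were averaged, and over 50% of them had to be well above background for a call. Detection required a call on every array. Levels are log2 signals relative to the 75th percentile of detected probes of the same array. The detected probe with the highest mean gave a gene's level.

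Unversioned RefSeq accessions named 21109 of 45598 probes (46.3%) through the gene table of assembly GRCr8. The file headers name an older build, so promoter coordinates come from RefSeq alone.

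With 1 group and 1 array per culture, no test between groups or for a difference between cultures was made; single samples far from the rest were sought with Dixon's gap over the range. The number of arrays limits the precision, and all arrays shared 1 slide. Members, lists and rules were chosen with earlier results of these data known. All members are named, and each list in its written order gave its first 3 detected genes and its first not above background on any array. A gene that this rule names is not reported here. Genes most like the members with the largest and smallest SD were the 4 nearest by root mean square difference. The steps were tested on simulated data. Alternatives changed detection, scaling, background correction (normexp, offset 50, limma version 3.58.1 in R version 4.3.3), spots, probe choice and replicates. Python version 3.11.15, numpy version 2.4.6 and pandas version 2.3.3 were used.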

Additional observations from a re-analysis of the deposited data

Results flagged for a closer look

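The Mmp12 signal of replicate 4 stood far from the others. It was 10.7 intensity units, with 3.41, 3.47 and 3.34 in replicates 1 to 3, and the gap to the nearest sample took up 0.967 of the whole range on the log2 scale, above Dixon's 95% critical value for 4 samples. Taken as ratios to the negative control median of the same array, which was also highest in replicate 4, the values were 1.02, 1.17, 1.01 and 2.32 in replicates 1 to 4. The gap was then 0.828 of the range and no longer passed; this alternative was chosen after seeing the data. The reading comes from 1 spot that was not called well above background. Of 27 values examined in this way 1 passed, and chance gives about 1 in 20.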

How the results depend on the processing

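The 2 member genes and 2 member probes detected were Timp2 and Tgfb1 under each of the 7 alternatives for detection, without any 1 replicate included. The 16 pathway genes detected became 27 when detection meant exceeding the 95th percentile of negative controls plus 10%, a limit that 21.5% of named genes passed. Without 1 replicate they numbered 16 to 17. The difference between replicate 4 and the other arrays depended on the scaling. For Timp2 it was 0.04, and it changed sign to -1.52 when scaled by all gene probes, -0.36 without scaling, -0.035 after quantile normalization and -0.017 without replicate 1. Leaving out 1 of the other replicates in turn gave -0.017 to 0.087. For Tgfb1 it was 1.12, with -0.45 when scaled by all gene probes, and it stayed positive in the other alternatives. The first 2 of these settings move every gene of an array by the same amount. Relative to the median detected gene, Tgfb1 in replicate 4 lay at 1.19, at 0.91 after quantile normalization and at 0.59 after normexp. Both Timp2 and Tgfb1 had 1 probe each, so the choice of probe left their levels as they were. Set against negative controls, the gap of Mmp12 in replicate 4 fell just short of the critical value on the log2 scale but not on the linear scale, as given above. No paired analysis was possible because there is only 1 group. Spots near the background of the array limit what can be read of the other 7 genes.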
